A study of Mus musculus with 6 samples.

Results

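The antiviral interferon-stimulated genes examined here are a named list of 39 mouse genes. It holds the IFIT and OAS families, the ISG15 system, RNA sensors and other effectors of the interferon response. Interferon regulatory factors, guanylate-binding proteins and MHC genes were kept out of it by the rule that defined it. The list was applied by gene name to an expression table of 55335 gene identifiers, and its rule sets no threshold on a measured value, although the members were chosen with earlier results of these data known. All 39 members were found, and 31 of them passed a filter on low values (1 FPKM or more as the mean of the libraries, where FPKM is the number of fragments scaled to the length of the transcript and to the depth of the library).

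RNA had been sequenced from primary microglia of newborn C57BL/6 mice, which were shaken off brain cultures on day 14 and kept together with neutrophils for 24 h. The neutrophils were purified with magnetic beads from spinal cord lesions 3 days after injury, either from mice with intact Cd177 (WT neutrophils) or from Cd177 knockout mice (KO neutrophils), and the microglia were recovered by flow sorting as Ly6G- cells. There were 3 libraries per arm and 6 in all. The microglia carried the WT genotype in both arms, so that the arms differ in the donor of the neutrophils and not in the genotype of the microglia. Neutrophil markers in the RNA of the sorted cells are given below. Every culture received neutrophils from injured cord, and microglia without neutrophils were not analysed here. Nothing in the labels says if an arm's 3 libraries are separate cultures or donors, so p-values measure only the spread between these libraries, which may be technical. Cells in a dish differ from microglia in the cord, and bulk RNA does not separate fewer cells of a type from less RNA per cell.

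Type I interferons bind the receptor pair IFNAR1 and IFNAR2, which activates the kinases JAK1 and TYK2. These activate transcription factors, IRF9 among their partners, that bind the interferon-stimulated response element (ISRE) in front of many antiviral genes. The products of these genes sense viral RNA, block its translation or degrade it, and hold virions back at membranes, and microglia carry the receptors and respond with many of these genes.

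All 31 tested members were lower in microglia cultured with KO neutrophils than with WT neutrophils, and 0 were higher. For comparison, 43.3% of all 11395 genes tested were called, 18.8% as lower and 24.5% as higher (limma on log2(FPKM + 1), Benjamini-Hochberg adjusted p under 0.05). The median log2 change of the tested members, KO minus WT, was -1.03, against 0.02 over all genes tested. In 18 members the fitted change also reached 2-fold, and 2.02% of all genes tested were both called and at least 2-fold lower. In all 31 tested members the lowest WT library was still higher than the highest KO library, while 24.6% of all genes tested were separated in that direction and 31.3% in the other. The 8 untested members, but for Mx1, were ordered the same way at low levels, where Slfn5 and Mx1 lay under the level of 3 fragments in every library. Over the 39 members the summed level was 695, 720.4 and 708 FPKM with WT neutrophils and 323, 316 and 311 FPKM with KO neutrophils. As a share of all FPKM, the sum was 0.221% to 0.228% with WT neutrophils and 0.0953% to 0.0989% with KO neutrophils.

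Adding 1 FPKM before taking logarithms shrinks the fold change of weakly expressed genes, so for weakly expressed members the ratio of the mean FPKM of the arms, WT over KO, or the share of the WT mean kept in the KO arm is given too. Of the 31 tested members, 6 (Ifit1, Oasl2, Rtp4, Xaf1, Cmpk2 and Dhx58) had a KO mean under 1 FPKM and passed the filter through their WT level, so their presence among the tested genes is tied to their direction. In an exact two-sided permutation test of a single gene, 3 libraries against 3 cannot give a p under 0.1, and 38 members reached that value. Reaching it means only that the arms did not overlap. Of all genes tested, 24.6% were separated with KO lower and 31.3% with KO higher. The 38 include Slfn5, which lay under the level of 3 fragments in every library.

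**Figure D1:**
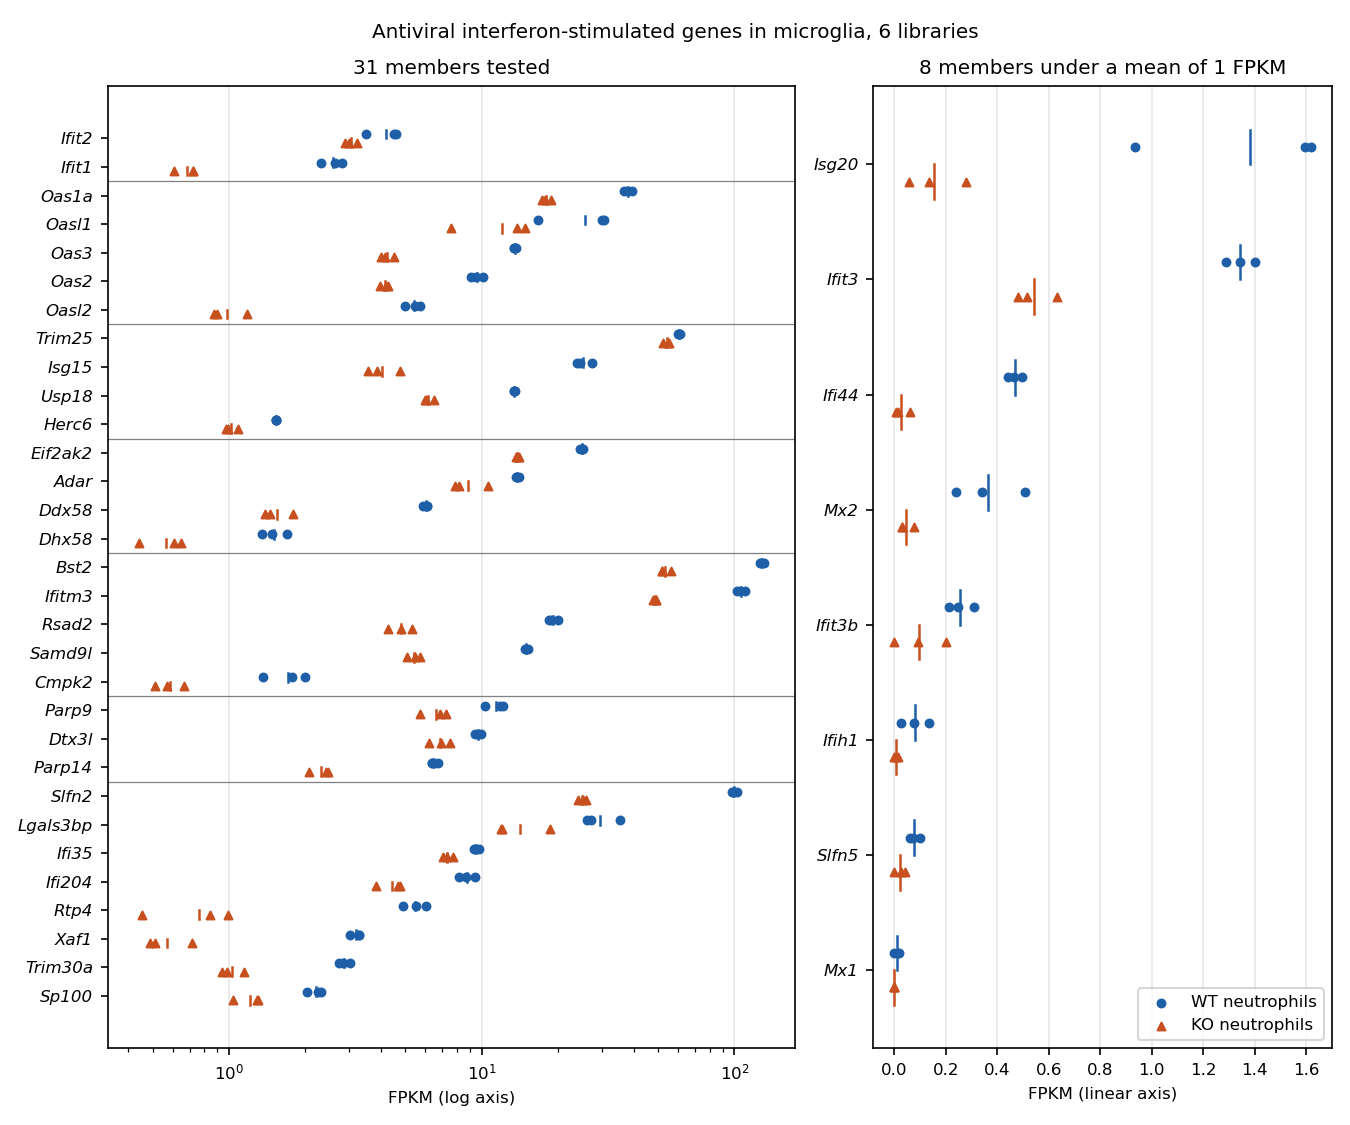
FPKM of each member in each of the 6 libraries (circles, WT neutrophils; triangles, KO neutrophils; short lines, arm means), with the 31 tested members on a log axis grouped by role and the 8 members under a mean of 1 FPKM on a linear axis. Every WT point lies to the right of every KO point in all rows but that of Mx1.

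The sequences in front of these genes are shown first, because a known response element stands in front of many interferon-stimulated genes. Windows of 250 bases before and 50 bases after the RefSeq transcript start (mouse build GRCm38.p6) were at hand for 30 of the 39 members. They were searched on both strands for the core of the ISRE, spelled GAAANNGAAA, where N is any base. In the 250 bases upstream of the start, 10 of 30 members (33.3%) held at least 1 core, against 3.46% of the 27025 genes with a window. The following stretches carry the cores of the members whose values are described below, read 5′ to 3′ on the strand of the gene, with the fixed bases of each core in capitals. A core on the opposite strand reads as TTTC, any 2 bases and TTTC.
Isg15, chr4:156200860-156200911, minus strand: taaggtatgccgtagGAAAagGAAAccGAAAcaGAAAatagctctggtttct
Oas3, chr5:120777710-120777749, minus strand: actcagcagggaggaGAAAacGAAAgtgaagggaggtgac
Oas1a, chr5:120907526-120907560, minus strand: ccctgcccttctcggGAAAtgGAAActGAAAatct
Trim30a, chr7:104465205-104465244, minus strand: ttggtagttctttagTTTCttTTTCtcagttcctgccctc
Bst2, chr8:71537572-71537617, minus strand: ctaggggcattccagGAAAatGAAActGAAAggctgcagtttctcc
Rsad2, chr12:26456548-26456587, minus strand: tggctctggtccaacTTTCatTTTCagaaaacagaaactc
Ifit1, chr19:34640770-34640828, plus strand: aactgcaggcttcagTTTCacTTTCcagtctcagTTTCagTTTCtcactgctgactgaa
Ifit3, chr19:34583358-34583431, plus strand: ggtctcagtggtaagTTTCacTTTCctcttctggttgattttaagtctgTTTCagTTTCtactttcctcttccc

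Isg15 held 3 overlapping cores, Oas1a and Bst2 held 2 overlapping ones, Ifit1 and Ifit3 held 2 separate ones, and Oas3, Trim30a and Rsad2 held 1. The near-copy of Ifit3, Ifit3b, carried the same 74 bases letter for letter at chr19:34607754-34607827, although the 250 upstream bases of the pair were 76.6% identical. Slfn5 was the last of the 10 members. The members had 37 windows in RefSeq, counting alternative starts, and in 25 of them the bases after the start lay within the first 60 bases of a GENCODE transcript of the gene. For the others, which include the windows of Bst2, Oas1a, Ifit3 and Ifit3b, what counts as upstream depends on the annotation. With the 50 bases after the start included, Ifih1, Ddx58, Ifitm3 and Eif2ak2 also held a core. That made 14 of 30 members (46.7%), against 3.99% of all genes with a window. The 7 tested members with an upstream core had a median log2 change of -1.26, ranging from -2.38 to -0.93. The 17 tested members with a window but no upstream core had a median of -0.80 and ranged from -1.95 to -0.16, so the ranges overlapped. Ifit3, Ifit3b and Slfn5 with an upstream core and Ifi44, Ifih1 and Isg20 without one were under the filter and left out. Members without a window were left out too, and the difference between the medians was not tested. The other interferon element, the GAS core TTCNNNGAA, was found upstream in 5 of 30 members (16.7%), against 8.13% of all genes with a window. Those were Ifit2, Isg20, Oas1a, Bst2 and Eif2ak2, of which Oas1a and Bst2 also held an ISRE core. No window was at hand for Parp14, Ifi204, Usp18, Dhx58, Mx1, Parp9, Oas2, Rtp4 and Mx2. A match of letters is a description of the sequence and does not show that a factor binds there. The members were listed as interferon-stimulated genes, so a high share of cores comes with the list, whatever these libraries show. Any part of the cores in the change between the arms was not tested.

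**Figure D2:**
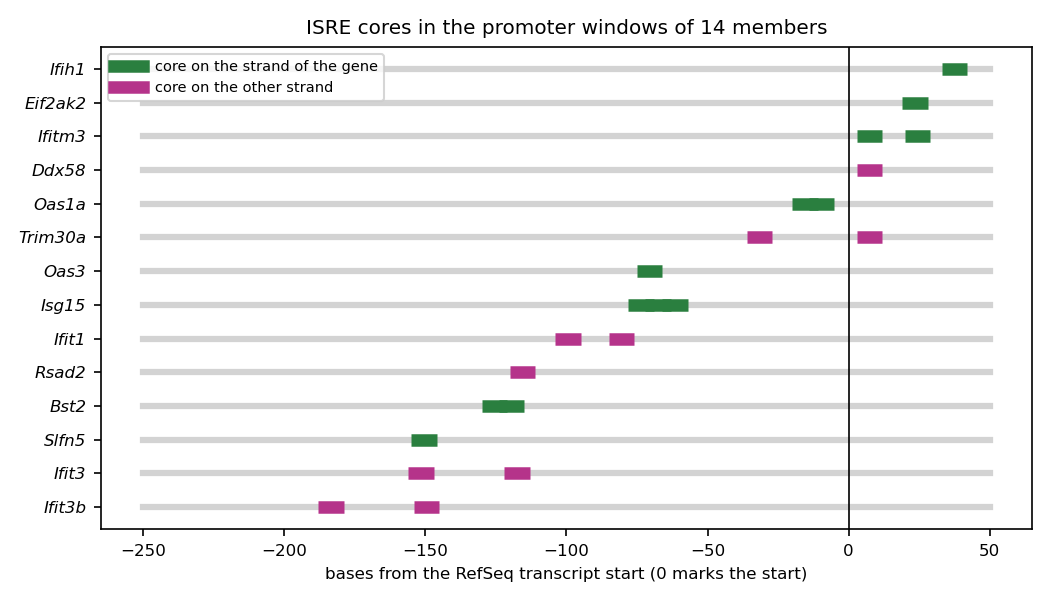
Position of each ISRE core (coloured bars) in the promoter windows of the 14 members that held one, in bases from the RefSeq transcript start, with the colour giving the strand of the core relative to the gene. Cores of 10 members lie upstream of the start, and those of Ifih1, Eif2ak2, Ifitm3 and Ddx58 lie only after it.

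In the IFIT family, whose proteins bind viral RNA and hinder its translation, 2 of 4 members were tested and both were lower with KO neutrophils. Ifit1, which binds RNA lacking a methylated cap, was at 2.32, 2.63 and 2.80 FPKM with WT neutrophils and at 0.722, 0.722 and 0.607 FPKM with KO neutrophils. The ratio of the arm means was 3.78, and the change was -1.09 ± 0.077 on the log2 scale (SE, limma adjusted p = 9.92e-05). Its levels were close together within each arm and far apart between the arms. Ifit2, which binds AU-rich RNA, showed a smaller separation, with 4.52, 3.50 and 4.57 FPKM against 2.99, 3.22 and 2.88 FPKM. The change of Ifit2 was -0.36 ± 0.095 on the log2 scale (SE, limma adjusted p = 0.0238). WT replicate 2 lay near the KO libraries. The call for Ifit2 was lost without WT replicate 1, WT replicate 3, KO replicate 1 or KO replicate 3, where the limma adjusted p lay between 0.0646 and 0.0730.

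The other IFIT members were under the filter. Ifit3 was at 1.40, 1.34 and 1.29 FPKM with WT neutrophils and at 0.516, 0.633 and 0.479 FPKM with KO neutrophils. Ifit3b stayed at or under 0.310 FPKM. The coding sequences of Ifit3 and Ifit3b, 1209 bases each, were 99.1% identical in GENCODE, so reads of the pair could be split in ways the table does not show. All 4 genes stand in 1 cluster on chromosome 19 on the plus strand, with Ifit2 at 34550694 to 34576419 and Ifit1 at 34640871 to 34650009 (GRCm38). Within that cluster, Ifit2 kept 72.2% of its WT mean in the KO arm and Ifit1 kept 26.5%.

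The OAS family was lower in all 5 members, each past 2-fold, with a median log2 change of -1.04. The active enzymes make 2′-5′-linked oligoadenylates when they meet double-stranded RNA. Oas3, which prefers long double-stranded RNA, was at 13.7, 13.5 and 13.5 FPKM with WT neutrophils and at 4.15, 4.51 and 4.00 FPKM with KO neutrophils (log2 change -1.48 ± 0.048 SE, limma adjusted p = 3.82e-06). The 3 WT libraries were almost level, and the highest KO library stood well under them. Oas2 was at 9.51, 10.1 and 9.09 FPKM and at 3.97, 4.20 and 4.25 FPKM, and its log2 change of -1.04 ± 0.052 (SE) passed the test (limma adjusted p = 2.07e-05). Oas1a was the highest of the family, with 37.5, 39.4 and 36.7 FPKM against 18.8, 17.8 and 17.4 FPKM (log2 change -1.03 ± 0.041 SE, limma adjusted p = 7.57e-06). Oas1a and Oas2 thus kept 47.5% and 43.2% of their WT means, while Oas3, which lies between them on chromosome 5, kept 31.2%. The coding sequence of Oas1a is 96.7% identical to that of its neighbour Oas1g, so its level is uncertain where reads could fall on either.

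The OAS-like genes encode proteins with ubiquitin-like domains. Oasl2 was at 5.69, 4.996 and 5.46 FPKM with WT neutrophils and at 1.179, 0.874 and 0.898 FPKM with KO neutrophils, a ratio of 5.47 and a change of -1.69 ± 0.082 on the log2 scale (SE, limma adjusted p = 1.88e-05). Oasl1, which in mice holds back translation of Irf7, was at 16.8, 30.4 and 29.9 FPKM with WT neutrophils and at 14.8, 13.8 and 7.57 FPKM with KO neutrophils. WT replicate 1 lay close to the upper KO libraries and KO replicate 3 lay far under its fellows, so that Oasl1 was the least even member of the family. Its log2 change was -1.04 with a 95% interval of -1.79 to -0.28 (limma adjusted p = 0.0369). The call for Oasl1 was lost without WT replicate 2 or WT replicate 3 (limma adjusted p = 0.104 for either), without KO replicate 2 (limma adjusted p = 0.0598) and without KO replicate 3 (limma adjusted p = 0.0784). The pair lies 11005 bases apart on chromosome 5, and their coding sequences are 60.1% identical.

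In the ISG15 system the modifier itself moved most. Isg15, a ubiquitin-like protein that is joined to newly made viral and host proteins, was at 24.5, 27.4 and 23.9 FPKM with WT neutrophils and at 3.57, 3.85 and 4.74 FPKM with KO neutrophils. The WT mean was 6.23 times the KO mean, and the log2 change was -2.38 with a 95% interval of -2.62 to -2.15 (limma adjusted p = 8.07e-06). No other member had a larger change on this scale, but with a pseudocount of 0.1 Rtp4 (-2.74) passed Isg15 (-2.62). Among all genes ordered by the size of their fall Isg15 held rank 33. Usp18, the protease that removes ISG15 and also restrains signalling at IFNAR2, was at 13.6, 13.4 and 13.4 FPKM and at 5.96, 6.03 and 6.46 FPKM, which gave a change of -1.02 ± 0.041 on the log2 scale (SE, limma adjusted p = 7.78e-06). The 2 ligases of this system changed little in comparison. Herc6, the main mouse ISG15 ligase, had a log2 change of -0.33 (limma adjusted p = 0.00644) and a ratio of arm means of 1.51, and 13.7% of its exonic bases overlap another gene on the same strand. Trim25, a ligase that acts on RIG-I, had the smallest change of all tested members at -0.16 (limma adjusted p = 0.00598) and kept 89.7% of its WT mean.

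Among the RNA sensors and RNA-acting enzymes, 4 of 5 members were tested and all 4 were lower, with a median log2 change of -0.74. Ddx58 encodes RIG-I, the sensor of RNA with a 5′ triphosphate, and was at 6.08, 5.87 and 6.09 FPKM with WT neutrophils and at 1.46, 1.39 and 1.80 FPKM with KO neutrophils (log2 change -1.46 ± 0.072 SE, limma adjusted p = 2.03e-05). Its ratio of arm means was 3.88, and its arms were separated by a gap wider than either arm's spread. The other 3 tested genes were Eif2ak2, the kinase PKR that halts translation, Adar, which edits adenosines in double-stranded RNA, and Dhx58, the regulator LGP2. Their log2 changes were -0.80, -0.60 and -0.68, and their KO means were 55.8%, 64.0% and 37.4% of the WT means. Dhx58 was weakly expressed, and with a pseudocount of 0.1 its log2 change was -1.29. In Adar, 16.8% of the exonic bases overlap Chrnb2 on the other strand, and the strand setting of the counting is not given, so reads of the pair cannot be told apart. Ifih1, which encodes MDA5, the sensor of long double-stranded RNA, stayed at or under 0.135 FPKM in every library and was not tested.

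The other effectors include proteins that act on membranes and nucleotides, and 4 of the 5 tested were past 2-fold. Rsad2 encodes viperin, which makes a chain-terminating nucleotide, and was at 20.0, 18.4 and 18.9 FPKM with WT neutrophils and at 4.80, 5.30 and 4.25 FPKM with KO neutrophils (log2 change -1.80 ± 0.073 SE, limma adjusted p = 8.30e-06). Its neighbour Cmpk2, a mitochondrial nucleotide kinase that starts 12751 bases away in the opposite direction, was much weaker in both arms. Cmpk2 had a log2 change of -0.77 (limma adjusted p = 0.00173), and its ratio of arm means was 2.93 against 4.00 for Rsad2. Samd9l, an inhibitor of translation, was at 15.0, 14.8 and 15.2 FPKM and at 5.72, 5.08 and 5.45 FPKM, which gave a change of -1.32 ± 0.047 on the log2 scale (SE, limma adjusted p = 5.36e-06).

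Bst2 and Ifitm3 were among the 3 members with the highest levels, and both were lower with KO neutrophils by a similar share. Bst2 encodes tetherin, which ties budding virions to the cell surface, and was at 127, 131 and 126 FPKM with WT neutrophils and at 51.5, 51.6 and 56.1 FPKM with KO neutrophils (log2 change -1.26 ± 0.038 SE, limma adjusted p = 2.89e-06). Ifitm3, which hinders the fusion of viruses in endosomes, was at 105, 102.5 and 109.6 FPKM and at 47.4, 49.1 and 48.7 FPKM, and the change was -1.11 ± 0.031 on the log2 scale (SE, limma adjusted p = 1.94e-06). The KO means were 41.4% of the WT mean for Bst2 and 45.8% for Ifitm3. Bst2 is also a marker of plasmacytoid dendritic cells, of whose other listed markers Siglech, Ccr9 and Klk1 were at or under 0.0375 FPKM in every library and Tcf4 was at 1.45 to 2.12 FPKM, with a log2 change of -0.11 (limma adjusted p = 0.443). Isg20, an RNA exonuclease, was not tested and was at 1.62, 0.933 and 1.60 FPKM against 0.135, 0.278 and 0.0557 FPKM. The dynamin-like GTPases were also under the filter. Mx2 was at 0.241, 0.509 and 0.341 FPKM against 0.0781, 0.0294 and 0.0287 FPKM, and Mx1 was at or under 0.0170 FPKM, which is below the level of 3 fragments in every library.

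PARP9, PARP14 and DTX3L are a group of ADP-ribosyltransferases and a ubiquitin ligase partner, and all 3 genes were lower. Parp14 was at 6.39, 6.37 and 6.70 FPKM with WT neutrophils and at 2.47, 2.42 and 2.07 FPKM with KO neutrophils (log2 change -1.17 ± 0.063 SE, limma adjusted p = 2.89e-05), a ratio of arm means of 2.80. Parp9 had a log2 change of -0.71 (limma adjusted p = 0.00151) and Dtx3l one of -0.45 (limma adjusted p = 0.00247). Parp9 and Dtx3l run in opposite directions on chromosome 16 and share 458 exonic bases, so their levels are not fully separate measurements.

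The remaining group of nuclear and other inducible genes had 8 tested members of 10, all lower, with a median log2 change of -0.97. Slfn2, a Schlafen protein that protects transfer RNA in stressed T cells, was at 98.1, 102 and 98.5 FPKM with WT neutrophils and at 24.1, 25.9 and 25.2 FPKM with KO neutrophils. Its log2 change of -1.95 ± 0.033 (SE) had the smallest adjusted p of the members (limma, 2.74e-07), and the libraries of each arm were nearly level. Its relative Slfn5, 100271 bases away on chromosome 11, stayed at or under 0.102 FPKM and could not be compared. Rtp4, a chaperone of receptors that also restrains flaviviruses, was at 5.51, 6.00 and 4.91 FPKM and at 0.844, 0.994 and 0.454 FPKM. Its ratio of arm means, 7.17, was the largest of the tested members, and the change was -1.89 ± 0.132 on the log2 scale (SE, limma adjusted p = 9.38e-05). Rtp4 shares 13.9% of its exonic bases with another gene on the same strand.

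Xaf1, a promoter of apoptosis, was at 3.29, 3.27 and 3.01 FPKM with WT neutrophils and at 0.489, 0.511 and 0.718 FPKM with KO neutrophils (log2 change -1.42 ± 0.080 SE, limma adjusted p = 3.59e-05), a ratio of arm means of 5.57. Lgals3bp, a secreted glycoprotein that binds galectins, was at 27.1, 35.2 and 26.1 FPKM and at 18.7, 12.1 and 11.9 FPKM. WT replicate 2 and KO replicate 1 lay above the other libraries of their arms, and the log2 change of Lgals3bp was -1.02 with a 95% interval of -1.48 to -0.55 (limma adjusted p = 0.00658). The 4 tested genes of this group under 2-fold on the fitted scale were Trim30a, Ifi204, Sp100 and Ifi35, with log2 changes of -0.93, -0.85, -0.54 and -0.34. Their ratios of arm means were 2.78, 1.98, 1.82 and 1.30, and with a pseudocount of 0.1 the log2 change of Trim30a was -1.39. Trim30a is a TRIM protein that restrains Toll-like receptor signalling, Ifi204 a relative of the DNA sensor IFI16, and Sp100 a part of nuclear bodies. Ifi44 was under the filter, at 0.465, 0.441 and 0.496 FPKM against 0.0139, 0.00706 and 0.0600 FPKM, so the KO libraries were all under the level of 3 fragments.

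**Figure D3:**
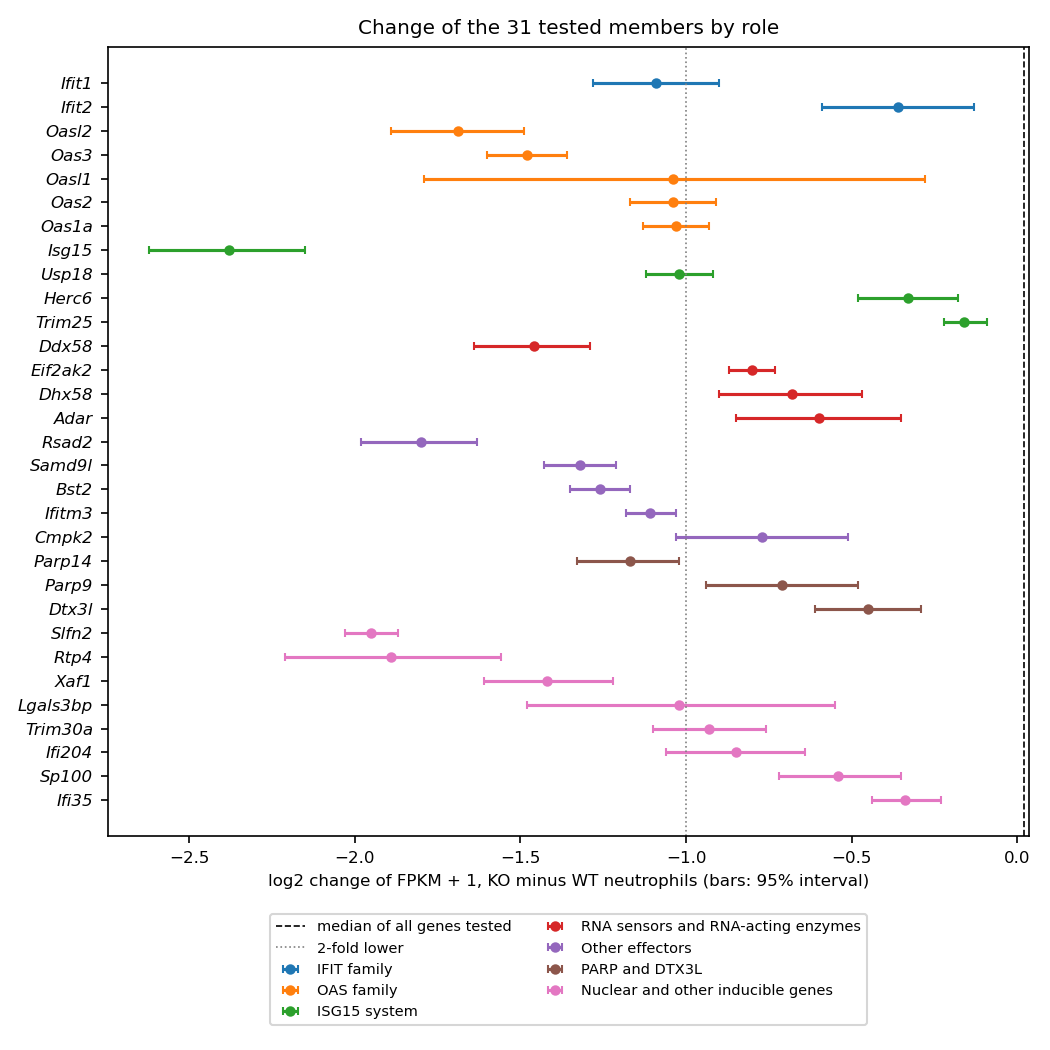
Log2 change of FPKM + 1, KO minus WT neutrophils, with its 95% interval for the 31 tested members, ordered within each role. All intervals lie below 0 and below the median of all genes tested (dashed line at 0.02), from Isg15 at -2.38 to Trim25 at -0.16, and Oasl1 has the widest interval.

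Across the 31 tested members the share of the WT mean that was kept in the KO arm ran from 14.0% in Rtp4 to 89.7% in Trim25. By mean FPKM, 21 tested members were at least 2-fold lower, 3 more than on the fitted scale. The median coefficient of variation between libraries was 4.34% for the tested members in the WT arm and 9.69% in the KO arm, where their levels were lower, against 5.23% and 5.09% over all genes tested. The 4 members with the highest levels made up 54.9% to 59.3% of the summed level in each library, so that the sum speaks mainly for those.

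The genes that make, receive and pass on the interferon signal were then read from a separate list of 57 genes, of which 31 were tested, 15 were lower and 5 were higher, with a median log2 change of -0.16. The interferon genes themselves had almost no transcript. Of 21 ligand genes, 19 were listed at 0 FPKM in all 6 libraries, among them Ifng, Ifne, Ifnk, the interferon lambda genes Ifnl2 and Ifnl3 and every interferon alpha gene of the list. Ifnb1 was above 0 in 1 WT library at 0.0837 FPKM, and Ifnz in 2 KO libraries at 0.0645 and 0.0364 FPKM. Transcripts of interferon in the neutrophils were not measured.

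Changes of the receptors were small. Ifnar1 was at 12.5, 11.7 and 9.92 FPKM with WT neutrophils and at 9.24, 11.4 and 12.0 FPKM with KO neutrophils, and the log2 change of -0.06 had a 95% interval of -0.33 to 0.22 (limma adjusted p = 0.715). Its partner Ifnar2 was lower, at 16.6, 17.7 and 16.7 FPKM against 12.4, 12.3 and 13.3 FPKM (log2 change -0.40, limma adjusted p = 6.48e-04). Of the interferon gamma receptor chains, Ifngr1 had a log2 change of 0.19 (95% interval -0.17 to 0.55) and Ifngr2 one of -0.09 (95% interval -0.16 to -0.01), and neither passed the threshold (limma adjusted p = 0.339 and 0.0665). Il10rb, a chain shared with the lambda receptor, was lower by a small amount (log2 change -0.16, limma adjusted p = 0.00365), and Ifnlr1 was not tested at 0.328 to 0.643 FPKM.

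The kinases and factors downstream of the receptors differed among themselves. Jak2, which serves the interferon gamma receptor, was at 10.2, 9.77 and 10.1 FPKM with WT neutrophils and at 5.19, 4.22 and 4.81 FPKM with KO neutrophils (log2 change -0.94, limma adjusted p = 1.08e-04). Jak1 had a log2 change of -0.12 (limma adjusted p = 0.0342), and that of Tyk2 was 0.05 with a 95% interval of -0.08 to 0.17 (limma adjusted p = 0.503). Of the factors, Irf9 was lower (log2 change -0.54, limma adjusted p = 0.00856), while Stat2 had a log2 change of -0.14 with a 95% interval of -0.36 to 0.09 (limma adjusted p = 0.272).

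Among the genes that induce interferon or restrain its signal, Irf7, the factor that amplifies interferon alpha transcription and is itself interferon-stimulated, had the smallest p, with a log2 change of -2.38 (limma adjusted p = 9.33e-07). That change was of the size seen in Isg15. Socs3, a suppressor of cytokine signalling, was at 14.1, 14.2 and 12.9 FPKM with WT neutrophils and at 3.41, 3.31 and 3.60 FPKM with KO neutrophils (log2 change -1.73, limma adjusted p = 2.70e-06). Ikbke, a kinase of IRF3 and IRF7, Tlr9, a sensor of unmethylated DNA, and Tank, an adaptor of these kinases, had log2 changes of -1.06, -0.87 and -0.41 (limma adjusted p = 7.38e-06, 5.62e-05 and 2.60e-04). In the other direction, the 5 genes called higher were Mavs, the adaptor of RIG-I, and Samhd1, Pias1, Ptpn1 and Nlrc3 of the restraining genes, with log2 changes from 0.24 to 0.31. Of the 8 restraining genes tested, 4 were higher and 3 were lower, the latter being Socs3, Ptpn2 (log2 change -0.31, limma adjusted p = 0.00452) and Ptpn6 (log2 change -0.30, limma adjusted p = 0.00161). Apart from Socs3, these genes were named after their values were seen.

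**Figure D4:**
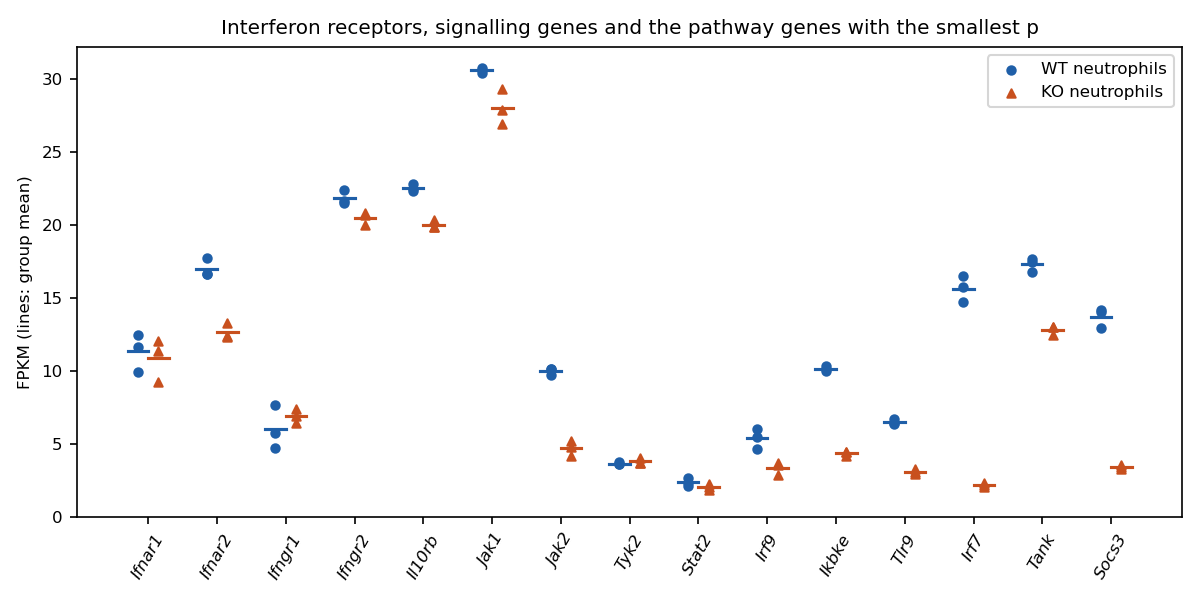
FPKM of interferon receptors, signalling genes and the 5 other pathway genes with the smallest p in each of the 6 libraries (circles, WT neutrophils; triangles, KO neutrophils; lines, arm means; linear axis from 0). The arms overlap for Ifnar1, Ifngr1, Tyk2 and Stat2 and stand apart for Jak2, Ikbke, Tlr9, Irf7, Tank and Socs3.

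Related interferon-stimulated genes outside the list were read from 3 further lists. Of 64 further interferon-stimulated genes, 48 were tested, 29 were lower and 3 were higher, with a median log2 change of -0.35. The smallest p in that list belonged to Helz2 (log2 change -1.06), Cxcl10, a chemokine for activated T cells (-2.40), and Zc3hav1, the zinc-finger antiviral protein (-0.46). Cxcl10 was at 5.53, 6.62 and 5.52 FPKM with WT neutrophils and at 0.575, 0.165 and 0.200 FPKM with KO neutrophils. Of the GBP and IRG GTPases, which attack the vacuoles of intracellular pathogens, 4 of 19 were tested and all 4 were lower, with a median of -0.52, and Irgm1, Gbp7 and Igtp had the smallest p (log2 changes -0.62, -0.79 and -0.35). Of 19 genes of MHC class I and the immunoproteasome, 17 were tested, 13 were lower and 1, Psmb10, was higher, with a median of -0.37. B2m, the light chain of MHC class I, had a log2 change of -0.50, H2-T23 one of -0.95 and H2-Q4 one of -1.05. As with the members, a tested gene with a KO mean under 1 FPKM passed the filter through its WT level, which ties its being tested to its direction. These were 6 of the further interferon-stimulated genes, Cxcl10 included (KO mean 0.313 FPKM), 1 of the GTPases, Gbp7 (KO mean 0.627 FPKM), and 1 gene of the MHC class I list, Psmb9. The antiviral members thus had a lower median than any of these lists, although differences between lists were not tested and the lists were chosen with results of these data known.

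Markers of the cell types that the sorted cells could hold were read beside these results. Of 16 neutrophil markers, 6 were listed at 0 in every library (Ly6g, S100a9, Retnlg, Mpo, Elane and Ltf). The summed neutrophil list was at 148 to 157 FPKM with WT neutrophils and 8.64 to 9.77 FPKM with KO neutrophils. That sum was carried by Lcn2, Hp and Mmp9, while the other 13 markers summed to 2.03 to 2.30 FPKM with WT neutrophils and 0.791 to 1.27 FPKM with KO neutrophils. The deleted gene of the donors, Cd177, was at 0.477, 0.113 and 0.151 FPKM against 0.109, 0.0217 and 0.0845 FPKM in these Ly6G- cells. Lcn2, Hp and Mmp9 were called lower with KO neutrophils, the direction of the antiviral members. The other 13 neutrophil markers were under the filter. Among them Mmp8 and Cxcr2 overlapped between the arms, and Ngp was above 0 in 1 KO library only. The part of neutrophil RNA in the result was not tested. Of 17 markers of microglia and macrophages, 9 had a mean of at least 1 FPKM, and the sum of all 17 was 1081 to 1121 FPKM with WT neutrophils and 1224 to 1273 FPKM with KO neutrophils. Within that list Adgre1 and Cx3cr1 were lower with KO neutrophils and 5 markers were higher. The homeostatic microglial markers were absent or nearly so, with Sall1, Fcrls and C1qa listed at 0 and P2ry12 at or under 0.148 FPKM. Astrocyte and oligodendrocyte markers summed to at most 0.265 and 0.379 FPKM in any library. Depth, read from the steps between low values, was 15600000 to 19200000 fragments per library.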

How the data were processed

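RNA-seq of 6 libraries (3 of microglia cultured with WT neutrophils and 3 with KO neutrophils) was analysed, with groups and replicate numbers as given in the titles. Expression was deposited by the authors as FPKM per gene identifier and library, without pooling, and their own test was DESeq2 on counts. The submitters' processing notes name fastp 0.17.1, HISAT2 2.1.0, DESeq2 1.18.1 and R 3.4.3, without roles. The quantification program, genome build and annotation are not given in the sources used here, and the labels and the study's methods name different kits and sequencers. Symbols, positions, exon overlaps and coding sequences came from GENCODE M21 (GRCm38), which named 55154 of 55335 identifiers, and promoter windows came from RefSeq (GRCm38.p6). FPKM values hide depth. The most common step between low values gave 15600000 to 19200000 fragments, but only 17.5% to 18.4% of low values were whole within 0.05 (10.0% by chance), so no count test was run. The level of 3 fragments covers counting error only.

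The 11395 genes whose mean reached 1 FPKM were tested with limma 3.58.1 in R 4.3.3 (lmFit, eBayes with trend) on log2(FPKM + 1), KO minus WT, without covariates, and adjusted by Benjamini-Hochberg over all of them at 0.05. The code was tested on simulated data. By rule, values in every library are given for members called at 2-fold or more. The other tested members are given by log2 change, ratio or share kept, and Ifit2 and some members under the filter were given per library after their values were seen. Some genes of the lists are not reported here. Members and lists were chosen with earlier results of these data known. Alternatives were a pseudocount of 0.1, no filter, a mean of at least 5 FPKM, the TPM scale, quantile normalization, no trend, a replicate block and each library left out. Same-numbered libraries did not deviate together (correlations -0.075, -0.052 and -0.005), so the numbers were not taken as pairs.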

Additional observations from a re-analysis of the deposited data

How the results depend on the processing

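Each of the 31 member changes was recomputed under up to 13 alternative settings. Of 387 such values 375 kept direction and call, 12 kept direction but lost the call, and 0 reversed. The 12 all belonged to Ifit2 and Oasl1. With no filter on low values their limma adjusted p was 0.0642 and 0.0965, and with the replicate block it was 0.0600 and 0.0734. With the replicate block 29 members were called lower, and 4212 genes were called in all. The members called lower numbered 27 to 31 when 1 library was left out and 33 with no filter, where Ifit3, Isg20, Mx2 and Ifi44 were called. With a mean of at least 5 FPKM, only 19 members could be tested and all 19 were called. The median log2 change was -1.19 with a pseudocount of 0.1, -0.93 with no filter, -1.17 on the TPM scale and -1.06 to -0.96 when 1 library was left out. On the TPM scale 55.0% of all calls were lower (2660 lower and 2175 higher), against 43.4% on the deposited scale (2141 lower and 2789 higher), and the median of all genes was -0.02. The count of pathway genes called ranged from 17 to 21. Depth limits what the 8 members under the filter can show, since Mx1 and Slfn5 lay under the level of 3 fragments in every library. The planned count tests were not run because the values are FPKM.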

Other observations

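A few genes around the antiviral members were uneven within an arm in the way Oasl1 was, and they were picked after their values were seen. Tlr7, the sensor of single-stranded RNA in endosomes, was at 30.4, 12.8 and 12.7 FPKM with WT neutrophils and at 42.4, 14.8 and 17.7 FPKM with KO neutrophils, so that replicate 1 was highest in both arms. Its log2 change was 0.37 with a 95% interval of -0.79 to 1.53 (limma adjusted p = 0.568). Itgam, the integrin chain CD11b, was at 8.12, 24.0 and 26.7 FPKM with WT neutrophils and at 15.4, 18.1 and 15.2 FPKM with KO neutrophils. In Oasl1 and Itgam WT replicate 1 was the low library, while the members Oas3, Usp18 and Slfn2 were nearly level over the same 3 libraries.

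Among the further interferon-stimulated genes, Ifi30 and Xdh were higher with KO neutrophils, and they too were named after their values were seen. Ifi30, a lysosomal thiol reductase, was at 126, 116 and 124 FPKM with WT neutrophils and at 176, 178 and 179.9 FPKM with KO neutrophils (log2 change 0.54, limma adjusted p = 5.18e-05). Xdh, which makes uric acid, was at 6.98, 7.54 and 6.80 FPKM against 11.9, 12.2 and 11.7 FPKM (log2 change 0.68, limma adjusted p = 8.32e-05).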
